A study of Homo sapiens with 6 samples.

Results

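The data described here are the 3 control libraries of Kasumi-1, out of 6 libraries in the series; all 3 control columns of the deposited expression table were taken and no treated library was used. Kasumi-1 is an established human cell line of acute myeloid leukaemia with the translocation t(8;21), by which part of RUNX1 is fused to RUNX1T1. The 3 samples were labelled as kept with control for 48 h; the labels name no vehicle, medium or passage, and do not say whether the 3 came from separate cultures, so the spread between them may be technical. The values are FPKM, fragments per kilobase of exon scaled to the size of the library, and each gene is given by its value in control replicates 1, 2 and 3 in that order, or as the mean ± SD over the 3 libraries (n = 3). There is 1 group, so nothing was tested and no p-value is given. The results are those of a single line and cannot be told apart from what is particular to that line.

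A myeloblast is an early precursor of neutrophils and monocytes. At the promyelocyte step that follows, the cell fills its primary, or azurophil, granules with myeloperoxidase and serine proteases; the proteins of specific and gelatinase granules are made later, as the neutrophil matures. RUNX1 is a DNA-binding factor needed to form blood stem cells, and RUNX1T1 (ETO) is a corepressor that blood cells normally make little of. The RUNX1-RUNX1T1 fusion binds RUNX1 sites together with other blood factors, and leukaemias that carry it are known for high MPO, KIT and CD34.

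The 3 libraries were scaled to totals of 18204000, 17331000 and 17687000 fragments, so that 1 read in a kilobase of exon was worth 0.0549, 0.0577 and 0.0565 FPKM and 3 reads, roughly the upper 95% limit on the expected count when 0 are seen, 0.165, 0.173 and 0.170 FPKM; these limits cover counting error only. The deposited table is named after lines and an agent that these samples are not; its column names, however, match the sample titles, which is why they were taken. RUNX1T1, POU4F1, TRH, HOXA9 and MEIS1 are given below with this in view. Replicate 1 stood apart from the other two. Across the expressed protein-coding genes, which are not independent replicates, Pearson's r of log2 FPKM was 0.982 between replicates 2 and 3, 0.961 between 1 and 3 and 0.949 between 1 and 2. The ratio of a library to the mean of the other 2 followed the GC content of the gene, with a Spearman's rho over 9334 genes of 0.746 in replicate 1, -0.693 in replicate 2 and -0.379 in replicate 3; GC-rich genes were thus relatively high in replicate 1. Of the expressed protein-coding genes 34.5% were highest in replicate 1, 40.4% in replicate 2 and 25.1% in replicate 3, the shares against which counts of members highest in a library are to be read. Where a gene is said to be highest in replicate 1, its GC content may have a part that was not tested for single genes; for gene groups the shifts are given with and without the GC trend.

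Of 29810 genes in the table, 10601 (35.6%) were at 1 FPKM or more in all 3 libraries, the level called expressed below. Among the 15616 protein-coding genes 9334 (59.8%) were expressed, 3031 (19.4%) were under 0.1 FPKM in all 3 libraries, called low below, and 3251 lay between. Of the low genes, 860 were listed at 0 in every library. Counts of expressed and low members of a list of protein-coding genes are to be read against the shares of 59.8% and 19.4%. The median protein-coding gene had a mean of 3.02 FPKM and the median expressed one 8.24 FPKM. Levels were unequal: 3982 protein-coding genes had a mean of at least 10 FPKM, 281 of at least 100 and 30 of at least 1000. Genes that the table does not list are named as not listed; EEF1G and CD68 are among these, so a gene that is not listed is not thereby shown to be silent.

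The 25 most abundant protein-coding genes held 26.4 ± 0.613% of all FPKM. Of these 25, 11 were messengers of the mitochondrial genome, 5 encoded ribosomal proteins, 3 azurophil granule proteins, 2 translation factors and 1 a chaperone; the other 3 were FTL, ACTG1 and ACTB. MT-CO3, a subunit of cytochrome c oxidase, led with 9298, 9271 and 8574 FPKM, and MPO followed with 9392, 7006 and 7763 FPKM. The 3 libraries of MPO and MT-CO3 overlapped, so the order of these 2 genes is not set: MPO was above MT-CO3 in replicate 1 and below it in the other two. MT-CO1 and MT-CO2 came next at 6667 ± 619 and 6297 ± 488 FPKM, within each other's spread. Behind them stood PRTN3 with 5025, 4206 and 4829.8 FPKM. The elongation factor EEF1A1 had 4837, 3189.9 and 3195 FPKM, and ELANE had 4118, 2382 and 2923 FPKM. FTL, the light chain of the iron store ferritin, reached 2739, 2485 and 3567 FPKM and was highest in replicate 3. The cytoplasmic actins ACTG1 and ACTB averaged 1377 ± 338 and 1231 ± 126 FPKM. Of the 24 pairs of neighbours in the order, 23 overlapped, as the plot of the leading genes by library shows for most, so the order is a rough one.

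**Figure D1:**
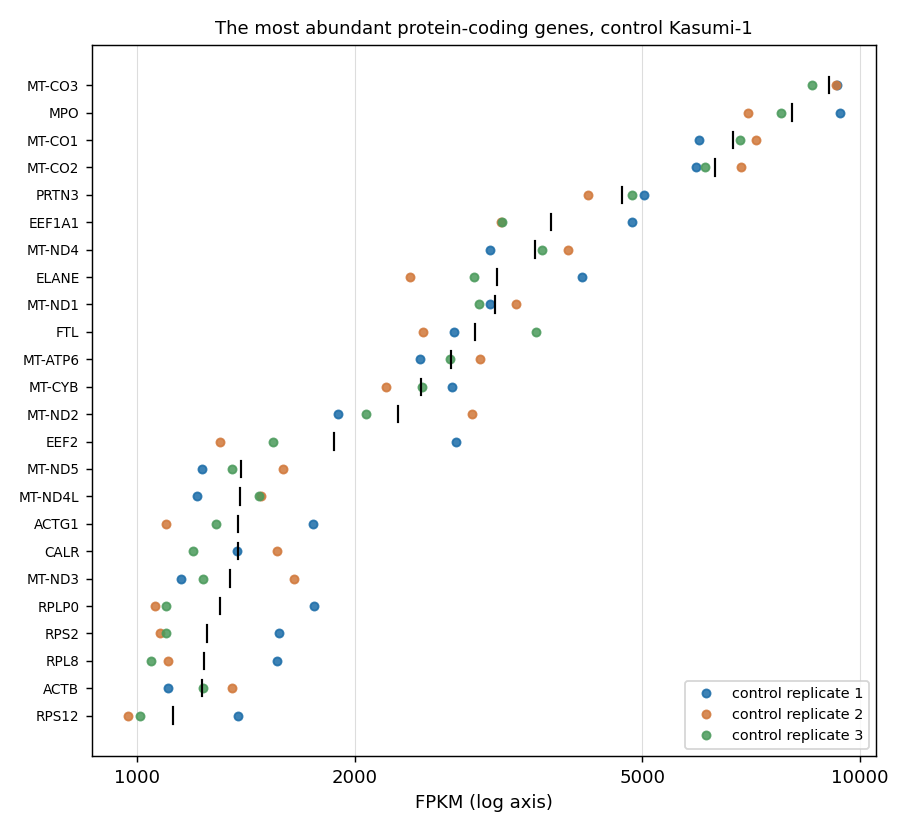
FPKM (log axis) of 24 of the 25 protein-coding genes with the highest mean over the 3 controls; each point is 1 library, coloured by replicate, and the black bar is the mean. MPO, PRTN3 and ELANE stand among the mitochondrial messengers at the top, and the ribosomal protein genes RPLP0, RPS2, RPL8 and RPS12 were highest in replicate 1.

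Azurophil granule genes led the nuclear genes by mean FPKM as deposited: MPO and PRTN3 were the 2 most abundant nuclear protein-coding genes and ELANE was the fourth. FTL was above ELANE in replicates 2 and 3, so the place of ELANE is not set. The order also depends on the gene length used, as given below. Of the 16 listed members, 14 were expressed and none was low, with a median of 191 FPKM against 3.02 FPKM for all protein-coding genes. The list also holds SERPINB1 and CLEC11A, whose proteins are cytosolic and secreted. SERPINB1 and CTSG, at means of 219 and 164 FPKM, lie on either side of that median. MPO makes hypochlorous acid from hydrogen peroxide and chloride. Its transcript (ENSG00000005381, chr17:58269856-58280935 on GRCh38) averaged 8054 ± 1219 FPKM, 977 times the median expressed gene, and took 2.84 ± 0.430% of all library fragments. PRTN3 (proteinase 3, ENSG00000196415, chr19:840960-848175) averaged 4687 ± 428 FPKM. ELANE (neutrophil elastase, ENSG00000197561, chr19:851014-856247) averaged 3141 ± 888 FPKM; both are serine proteases that digest microbes. AZU1, azurocidin, a relative of these proteases without enzyme activity (chr19:825097-832018), had 812, 467 and 544 FPKM. PRSS57, another granule serine protease (chr19:685546-695498), had 921, 680.4 and 683 FPKM. CFD, complement factor D (chr19:859643-863630), had 430.4, 208 and 305 FPKM. These 5 genes of chromosome 19 lie together near the end of its short arm, and all 5 were highest in replicate 1 and lowest in replicate 2. MPO, PRTN3, ELANE and AZU1 together held 6.63%, 4.98% and 5.79% of all FPKM in the 3 libraries.

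The other granule members covered a wide range. SERPINB1, the cytosolic inhibitor of these proteases, had 217, 221 and 219 FPKM, a coefficient of variation (SD over mean) of 0.837%. CLEC11A, a secreted growth factor of the lectin family, had 765, 627 and 626 FPKM and thus spread more. CTSG, cathepsin G, a serine protease of the same family encoded on chromosome 14, had 205, 144 and 142 FPKM. PRTN3 exceeded CTSG by 24.5 to 34.0 times in the 3 libraries, far outside the spread of either, and by 20.6 times per kilobase of the principal transcripts. SRGN, the proteoglycan that packs granule contents, averaged 54.5 ± 3.99 FPKM. RNASE2, an antimicrobial ribonuclease of granulocytes, averaged 26.9 ± 7.49 FPKM. LYZ, lysozyme, which is made in the same granules, had 3.80, 9.22 and 10.4 FPKM, lowest in replicate 1; 34.0% of its exon bases overlap a gene on the other strand. BPI, which binds bacterial endotoxin, had 0.947, 0.533 and 0.623 FPKM and was, with the ribonuclease RNASE3 at 1.22, 0.801 and 1.02 FPKM, one of the 2 members not expressed. DEFA1, DEFA3 and DEFA4, the defensins, were not listed.

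The sequences before the start sites of 4 of these genes are shown as examples. PU.1-type and RUNX sites in such short promoters are what granule genes are known for. The 4 are not the most abundant members with a sequence. RefSeq (GRCh38.p14) promoter sequences matched 10 of the 16 listed members; MPO and ELANE were not among them. The 140 bases before the annotated start are given 5′ to 3′ on the gene's strand, from chr19:840859-840998 (plus strand), chr14:24576251-24576390 (minus), chr19:695453-695592 (minus) and chr19:827697-827836 (plus), with GAGGAA or its reverse TTCCTC (a PU.1-type ETS core) and TGTGGT or its reverse ACCACA (a RUNX core) in capitals.
PRTN3: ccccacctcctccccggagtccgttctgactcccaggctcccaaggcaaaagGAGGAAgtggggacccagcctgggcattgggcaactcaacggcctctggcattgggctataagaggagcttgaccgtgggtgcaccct
CTSG: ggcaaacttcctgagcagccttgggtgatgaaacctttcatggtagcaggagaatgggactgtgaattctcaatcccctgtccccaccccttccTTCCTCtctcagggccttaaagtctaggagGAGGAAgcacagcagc
PRSS57: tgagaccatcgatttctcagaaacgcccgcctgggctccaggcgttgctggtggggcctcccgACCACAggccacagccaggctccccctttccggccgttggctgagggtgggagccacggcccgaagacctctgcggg
AZU1: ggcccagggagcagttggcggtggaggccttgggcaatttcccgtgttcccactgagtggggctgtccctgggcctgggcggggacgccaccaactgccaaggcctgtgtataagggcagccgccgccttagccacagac
PRTN3 held 1 ETS core and CTSG 2, PRSS57 held 1 RUNX core and AZU1 neither. The matched members not shown held neither core in their 140 bases. CLEC11A, CFD and SERPINB1, each with a higher mean than CTSG, are among them. Over the whole window of 250 bases before to 50 after the start, both strands searched, the ETS core was in 23.2% of 12398 protein-coding promoters and in 2 of the 10 granule promoters, and the RUNX core in 8.29% and in 1 of 10; these letters did not set the granule genes apart, and the search says nothing of binding.

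Cytosolic ribosomal protein genes formed a broad abundant group, with 75 of 79 listed members expressed, none low and a median of 266 FPKM. RPLP0, a stalk protein of the large subunit, led with 1756, 1059.8 and 1095 FPKM. RPS2, of the small subunit, had 1571, 1076 and 1096 FPKM. In both genes replicate 1 was far above the other two, which lay close together. RPL8, RPS12 and RPL41 averaged 1236 ± 283, 1119 ± 226 and 1084 ± 255 FPKM. Translation factors stood beside them, 28 of 29 expressed with a median of 89.8 FPKM. EEF1A1, which brings aminoacyl-tRNA to the ribosome, and EEF2, which moves the ribosome along, averaged 3741 ± 949.5 and 1869 ± 784 FPKM. PABPC1, the poly(A)-binding protein, averaged 688 ± 164 FPKM and BTF3, part of the nascent chain complex, 281 ± 41.1 FPKM.

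The deposited values divide by the length of all exons of a gene, so a gene with long minor transcripts is given a lower level than its main transcript would have. Restated per kilobase of the principal transcript, a setting added after the values were seen, RPS24 went from 371 to 4599 FPKM, RPLP0 from 1304 to 3881 and RPS2 from 1248 to 3056, while ELANE and the mitochondrial genes kept their values and MPO moved from 8054 to 8833. Of the 25 leading genes 19 were then still among the leading 25, which now held 10 ribosomal protein genes, 8 mitochondrial messengers and the same count of 3 azurophil genes. Among the leading 50, however, azurophil genes went from 6 to 3 and ribosomal protein genes from 17 to 25. Among the leading 100 the azurophil genes went from 7 to 6. The order of genes given below holds for the deposited scale, and the ratio per kilobase of the principal transcript is added where a comparison turns on it. The members under 1 FPKM in at least 1 library, RPS10, RPL17, RPS15A and RPL26, share 39.4%, 32.7%, 3.26% and 14.3% of their exon bases with other genes on the same strand; the sources used here do not say how shared reads were counted. A copy can also take reads: the processed pseudogene RPS28P7 was listed at 2947, 1619 and 1896 FPKM and RPS28 itself at 80.2, 59.6 and 58.3 FPKM, and EEF1A1P5, RPL9P9 and RPLP0P6 at means of 707, 531 and 301 FPKM, so the level of each such pair is uncertain.

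**Figure D2:**
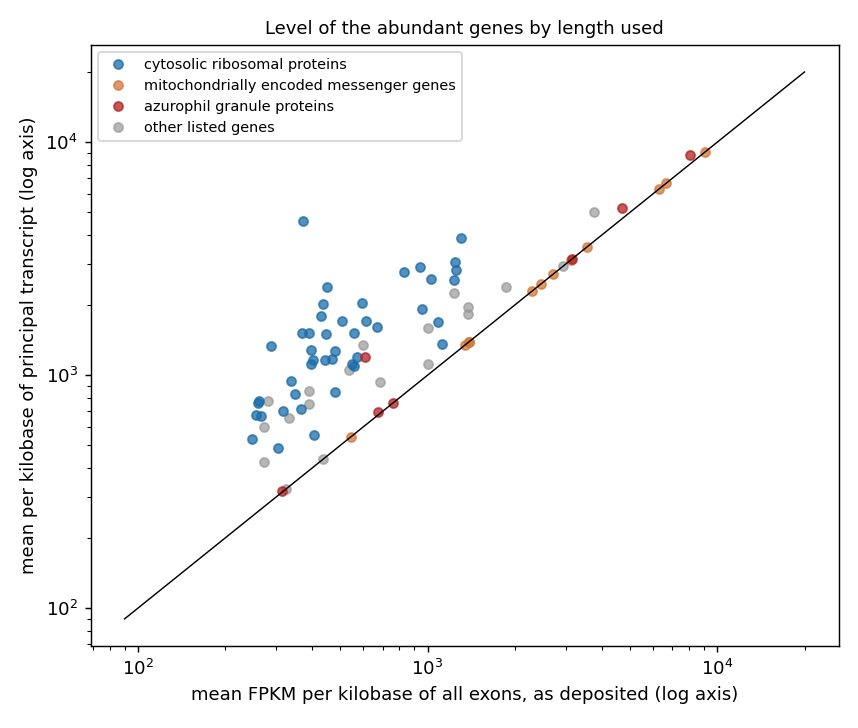
Mean level of those of the 100 most abundant protein-coding genes that are members of a list or otherwise named, per kilobase of all exons as deposited (x, log axis) against per kilobase of the principal transcript (y, log axis), with the line of equal values; colours mark 3 gene lists. Ribosomal protein genes lie above the line, RPS24 the farthest, while azurophil and mitochondrial genes lie on or near it except AZU1, at 608 and 1194.

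Messengers of the translation machinery are known to begin with a C followed by a run of pyrimidines (a 5′ terminal oligopyrimidine tract). Windows from 30 bases before to 20 after the RefSeq start (GRCh38.p14) are shown for 6 of the most abundant ones and for RPL19, which lacks the tract at its annotated start; the run of pyrimidines from the start base on is in capitals. They are chr12:120201092-120201141 (minus strand), chr6:132814539-132814588 (plus), chr9:133348188-133348237 (plus), chr6:33272045-33272094 (plus), chr6:73521013-73521062 (minus), chr19:3985444-3985493 (minus) and chr17:39200253-39200302 (plus).
RPLP0: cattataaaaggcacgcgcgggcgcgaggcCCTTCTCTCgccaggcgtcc
RPS12: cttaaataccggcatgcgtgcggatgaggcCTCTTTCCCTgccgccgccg
RPL7A: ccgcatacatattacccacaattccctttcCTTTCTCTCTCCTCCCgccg
RPS18: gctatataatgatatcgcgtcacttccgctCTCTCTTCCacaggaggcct
EEF1A1: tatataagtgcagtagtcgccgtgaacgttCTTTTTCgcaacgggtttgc
EEF2: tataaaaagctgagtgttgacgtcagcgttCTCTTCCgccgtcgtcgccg
RPL19: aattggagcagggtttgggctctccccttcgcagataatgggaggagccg
A start at C with at least 5 pyrimidines was found in 43 of 63 ribosomal protein genes with a promoter sequence (68.3%) and in 10 of 22 translation factors (45.5%), against 629 of 12398 protein-coding genes (5.07%). Among the 100 most abundant protein-coding genes 33 of the 70 with a sequence had it (47.1%), against 5.85% of the expressed and 3.60% of the low genes. Of those 100 genes, 44 encode ribosomal proteins. All of EEF1A1, EEF2, RPLP0, RPS12, RPL7A and RPS18 were highest in replicate 1, as were 72 of the 75 expressed ribosomal protein genes. Of all expressed protein-coding genes 34.5% were highest there. Whether genes with and without the tract differ in this was not tested.

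Mitochondrially encoded messengers held 13.2%, 15.7% and 14.4% of all FPKM in the 3 libraries, and all 13 were expressed, with a median of 2472 FPKM. The lowest were MT-ND6, whose template is the other strand, with 334, 773 and 524 FPKM, and MT-ATP8 with 10.9, 26.5 and 17.8 FPKM. MT-ATP8 shares 22.2% of its bases with MT-ATP6, so that reads could be split between them. All 29 heat shock proteins and chaperones listed were expressed, with a median of 114 FPKM. CALR, a calcium-binding chaperone of the endoplasmic reticulum, had 1376, 1562 and 1193 FPKM. HSP90AB1, a cytosolic chaperone of kinases and receptors, averaged 1003 ± 104 FPKM, HSPA8 535 ± 59.8 FPKM and HSPA5, the chaperone of the endoplasmic reticulum that granule proteins pass, 324 ± 113 FPKM.

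Glycolysis enzymes were expressed in 16 of 23 listed members (69.6%, against 59.8% of protein-coding genes), with a median of 50.5 FPKM. GAPDH had 1099, 789.9 and 1112 FPKM and ENO1, enolase, 472, 547 and 780.1 FPKM; both were highest in replicate 3. Isoforms known from liver and muscle were lower: PKLR averaged 0.0287 FPKM and PFKM 0.293 FPKM.

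The markers of the line were all expressed. KIT, which binds stem cell factor, had 149.5, 179 and 157 FPKM (chr4:54657918-54740715), with a coefficient of variation of 9.68%. CD34, a sialomucin of stem and progenitor cells, had 54.6, 34.1 and 29.9 FPKM (chr1:207880972-207911402) and was highest in replicate 1. RUNX1T1 had 12.1, 14.4 and 15.3 FPKM. RUNX1 had 28, 30.4 and 34.5 FPKM, 2.11 to 2.31 times RUNX1T1 in the same library, and 3.16 times per kilobase of the principal transcripts. Reads of the fusion transcript fall on exons of both genes, and gene totals cannot separate the fusion from the normal transcripts. All 7 members of the RUNX, CBFB and ETO family were expressed: CBFB, which stabilises RUNX proteins on DNA, averaged 17.2 ± 4.43 FPKM and RUNX3 14.6 ± 1.04 FPKM. RUNX2 averaged 4.90 ± 1.06 FPKM, and the ETO relatives CBFA2T2 and CBFA2T3 5.77 ± 0.892 and 4.10 ± 0.924 FPKM. RUNX1T1, RUNX3 and CBFB overlapped one another.

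Among 19 listed genes reported as typical of t(8;21) leukaemia, 13 were expressed (68.4%, against 59.8% of protein-coding genes) and 2 were low. The 13 include the markers MPO, KIT, CD34 and RUNX1T1, and the count by itself does not set the list apart. Beside MPO, KIT, CD34 and RUNX1T1 the highest was JUP, plakoglobin of cell junctions, with 105, 82.2 and 86.7 FPKM. TRH, thyrotropin-releasing hormone, had 12.8, 24.9 and 15.5 FPKM, and PALM, a membrane-bound phosphoprotein, averaged 17.0 ± 3.95 FPKM. POU4F1, a neuronal POU factor, had 6.12, 5.6 and 4.82 FPKM; 27.7% of its exon bases overlap a gene on the other strand, and the sources used here do not say whether counting used strand. TRH and POU4F1 had reads in all 3 libraries. IGFBP7, ROBO1, WT1 and ST18 averaged 11.9, 7.39, 6.72 and 3.42 FPKM. The B cell factor PAX5 averaged 1.12 ± 0.400 FPKM. NCAM1 (CD56), also linked to this leukaemia, was listed at 0 in all 3 libraries.

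Stem and progenitor surface genes were expressed in 18 of 26 listed members (69.2%, against 59.8% of protein-coding genes), with a median of 6.65 FPKM. After KIT came CD99, an adhesion glycoprotein, with 53.1, 60.5 and 61.3 FPKM, and then CD34. The hyaluronan receptor CD44, the TGF-beta coreceptor ENG and the sialoglycoprotein SPN averaged 32.7 ± 5.39, 25.2 ± 3.22 and 24.9 ± 1.29 FPKM. The myeloid lectin CD33 had 16.8, 12.1 and 11.7 FPKM and CD38, an ectoenzyme gained as progenitors mature, had 0.857, 1.48 and 1.06 FPKM. CD34 exceeded CD38 by 23.0 to 63.7 times in the 3 libraries and by 32.2 times per kilobase of the principal transcripts. The leucocyte phosphatase PTPRC (CD45) averaged 8.39 ± 2.87 FPKM. PROM1 (CD133) was listed at 0 in all 3 libraries, and THY1 (CD90) had 4, 0 and 0 reads. Of 19 listed surface targets of leukaemia therapy, which share members with this list, 8 were expressed and 4 were low. In bulk RNA, fewer cells with a transcript and less of it per cell cannot be told apart.

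Myeloid transcription factors were expressed in 24 of 29 listed members, with a median of 9.09 FPKM. MYC, which drives growth and ribosome production, led with 538, 337 and 297 FPKM and ranked 71 among protein-coding genes; it was highest in replicate 1. GFI1, a repressor needed for the granulocyte fate, had 159, 138 and 129 FPKM. SPI1 (PU.1), the factor of myeloid and B cell fate, had 123, 104 and 113 FPKM, under every library of GFI1; per kilobase of the principal transcript GFI1 stood at 0.983 times SPI1, so their order is not set. MYB, a factor of progenitors, had 59.2, 54.6 and 55.9 FPKM, a coefficient of variation of 4.17%. The ETS repressor ETV6 averaged 31.9 ± 3.39 FPKM.

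The C/EBP factors, which act in turn as granulocytes mature, were unequal. CEBPE, the factor of late granule genes, had 41.7, 34.5 and 33.3 FPKM. CEBPA, which starts granulocyte differentiation, had 4.86, 3.38 and 3.65 FPKM, and 43.4% of its exon bases overlap a gene on the other strand. CEBPE exceeded CEBPA by 8.58 to 10.2 times in the 3 libraries (9.20 times per kilobase of the principal transcripts). CEBPA was the lowest in each of the 6 listed genes whose symbols begin with CEBP. CEBPB, an acute response factor, had 14.1, 4.54 and 6.33 FPKM, with replicate 1 well above the other two. CEBPD and CEBPG averaged 30.1 ± 10.4 and 14.9 ± 0.758 FPKM. CEBPZ, which shares the name but is not one of the C/EBP factors, averaged 15.0 ± 2.89 FPKM. ETS factors beside SPI1 were FLI1 at 19 ± 2.53 FPKM and ERG at 13.7 ± 2.14 FPKM, whose libraries did not overlap, and ELF1 and ELF4 at 20.8 ± 3.79 and 12.8 ± 1.04 FPKM.

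All 7 factors of the stem cell heptad, a set known to bind shared enhancers in blood progenitors, were expressed. LYL1 had 164, 85 and 106 FPKM and its relative TAL1 had 7.65, 4.75 and 4.07 FPKM. Their bridging partner LMO2 had 46.4, 31.8 and 38.2 FPKM, and GATA2, a factor of stem and mast cells, 23.4, 13.6 and 12.4 FPKM. LYL1, TAL1, LMO2, GATA2 and FLI1 were highest in replicate 1. GATA1, which replaces GATA2 in red cell and platelet precursors, was listed at 0.110, 0 and 0 FPKM and GFI1B, the relative of GFI1 in those lineages, at 0.0270, 0.00945 and 0.00926 FPKM. Of 10 listed erythroid and megakaryocytic factors 6 were expressed (60%, against 59.8% of protein-coding genes), in part the same genes. All 5 listed E proteins and ID inhibitors were expressed. The E proteins TCF3 and TCF12 averaged 45.4 ± 5.53 and 16.2 ± 2.21 FPKM, and ID1, ID3 and ID2, which block their binding to DNA, 27.9 ± 5.41, 4.5 ± 0.878 and 3.66 ± 0.222 FPKM.

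HOX, MEIS and PBX genes were expressed in 7 of 22 listed members and low in 7. PBX2 stood highest at 41.2, 40.3 and 38.9 FPKM, while its relative PBX3 averaged 0.00416 FPKM. HOXA5 had 6.95, 6.73 and 5.07 FPKM and HOXA10 had 3.82, 4.86 and 4.07 FPKM. HOXA9, which lies between them in the HOXA cluster and is high in leukaemias with KMT2A fusions, had 0.272, 0.210 and 0.336 FPKM. HOXA5 exceeded HOXA9 by 15.1 to 32.1 times and HOXA10 exceeded it by 12.1 to 23.2 times; per kilobase of the principal transcripts the ratios were 16.1 and 15.5. MEIS1, the partner of HOXA9, had 0.0251, 0 and 0.00517 FPKM, while HOXA11, HOXD13 and MEIS2 averaged 2.90, 2.06 and 2.68 FPKM; 31.1% of the exon bases of HOXA11 overlap a gene on the other strand. Of the lymphoid factors 3 of 16 listed were expressed, IKZF1, BCL11A and TOX, at means of 18.9 ± 2.61, 7.16 ± 0.167 and 6.76 ± 1.01 FPKM.

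**Figure D3:**
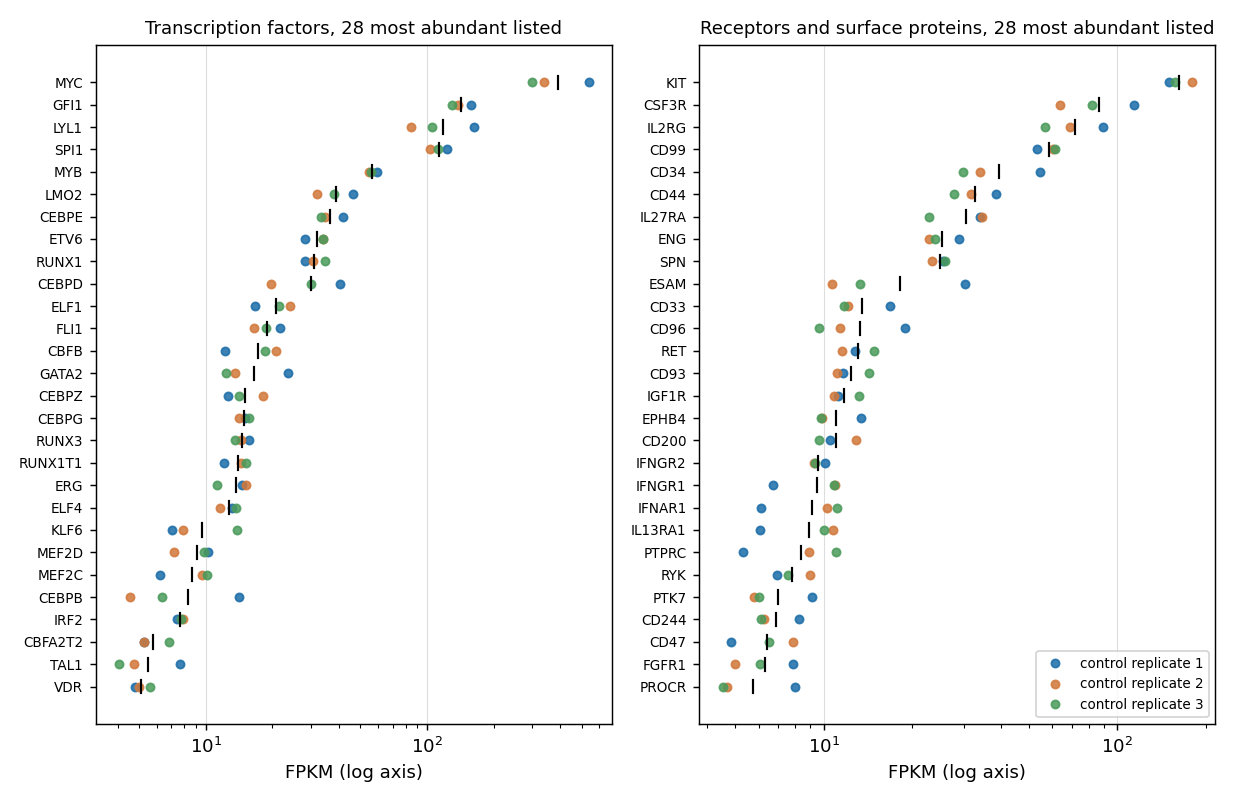
FPKM (log axis) of the 28 most abundant listed transcription factors (left: myeloid, heptad and RUNX lists) and of the 28 most abundant listed receptors and surface proteins (right: receptor tyrosine kinase, cytokine receptor and stem cell surface lists); each point is 1 library, coloured by replicate, and the bar is the mean. MYC, GFI1, LYL1 and SPI1 lead the factors, and KIT and CSF3R lead the receptors.

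Genes of later neutrophil granules were mostly not expressed: 3 of 18 listed members reached 1 FPKM in all libraries, 8 were low and the median was 0.143 FPKM. CSF3R, the receptor of G-CSF, which is also used by progenitors, had 114, 63.6 and 82.1 FPKM and was the only member over 10 FPKM. S100A9 had 5.14, 6.30 and 6.37 FPKM, whereas its partner in calprotectin, S100A8, had 0, 0.0574 and 0 FPKM, or 0, 1 and 0 reads. The membrane metalloprotease MMP25 averaged 3.22 ± 0.982 FPKM, with 35.2% of its exon bases under a gene of the other strand, and the chemokine receptor CXCR2 and the histone deiminase PADI4 averaged 0.916 ± 0.419 and 0.753 ± 0.400 FPKM. LCN2, lipocalin of specific granules, was listed at 0 and MMP9, gelatinase, at 0.0705, 0.0247 and 0.0242 FPKM; LTF, CAMP and MMP8 were not listed. The median of the azurophil list was thus 191 FPKM and that of this list 0.143 FPKM, on the same per-length scale. Both lists also hold genes whose products are not granule contents, such as SERPINB1 in the first and CSF3R and CXCR2 in the second. The medians are thus those of the lists and not of granule contents alone.

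Monocyte and macrophage genes were expressed in 6 of 18 listed members and low in 7, with a median of 0.0920 FPKM. CD4, a coreceptor that monocytes share with T cells, had 36.6, 34.1 and 35.2 FPKM, with a coefficient of variation of 3.64%. VSIG4, a complement receptor of macrophages, had 51.0, 20.1 and 30.5 FPKM. SIRPA, S100A4 and the high-affinity IgG receptor FCGR1A averaged 18.1 ± 1.46, 17.1 ± 4.74 and 5.99 ± 1.48 FPKM, and CSF1R, the M-CSF receptor, 4.80 ± 2.19 FPKM. The defining surface gene CD14 had 0.117, 0.0612 and 0 FPKM. ITGAM (CD11b) had 0.126, 0.0509 and 0.0699 FPKM, so neither reached the level called expressed. FCN1 was listed at 0 in every library, and VCAN averaged 0.0101 FPKM.

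Other blood lineages left few transcripts, with list medians of 0.0177 to 0.265 FPKM. B cell genes were expressed in 4 of 11 listed members. The antigen receptor chain CD79B had 8.82, 4.77 and 4.70 FPKM, and CD79A, IGLL1 and TNFRSF13C averaged 1.26 ± 0.279, 3.79 ± 1.97 and 2.39 ± 0.975 FPKM; all 4 were highest in replicate 1. T and NK cell genes were expressed in 3 of 18 and low in 13. CD8A, CD247 and NKG7 averaged 2.86 ± 0.791, 1.30 ± 0.103 and 1.21 ± 0.0555 FPKM. Of the CD3 chains, which define T cells, CD3E had 0, 0.0406 and 0.0199 FPKM. CD3D was higher, at a mean of 0.669 FPKM, and was not expressed in all libraries either. Erythroid genes were expressed in 3 of 13 and low in 9. The transferrin receptor TFRC, which all dividing cells use, had 44.2, 102 and 108 FPKM, with replicate 1 well under the other two. HBQ1, a minor globin, averaged 4.78 ± 1.54 FPKM and EPOR 3.42 ± 1.40 FPKM. HBA1 and HBA2 were listed at 0 in every library; they are near-identical copies, so their values are uncertain.

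None of 13 listed megakaryocyte and platelet genes was expressed in all libraries; GP1BA, of the von Willebrand factor receptor, was nearest with 1.03, 0.807 and 1.56 FPKM. Of 16 listed mast cell, basophil and eosinophil genes GATA2 and the Fc receptor chain FCER1G were expressed. FCER1G had 2.56, 1.5 and 2.93 FPKM, and the mast cell tryptase TPSB2 had 2.15, 0.664 and 0.878 FPKM. Dendritic cell genes were expressed in 3 of 11: CD83 at 13.7 ± 1.64 FPKM, IL3RA and FLT3.

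**Figure D4:**
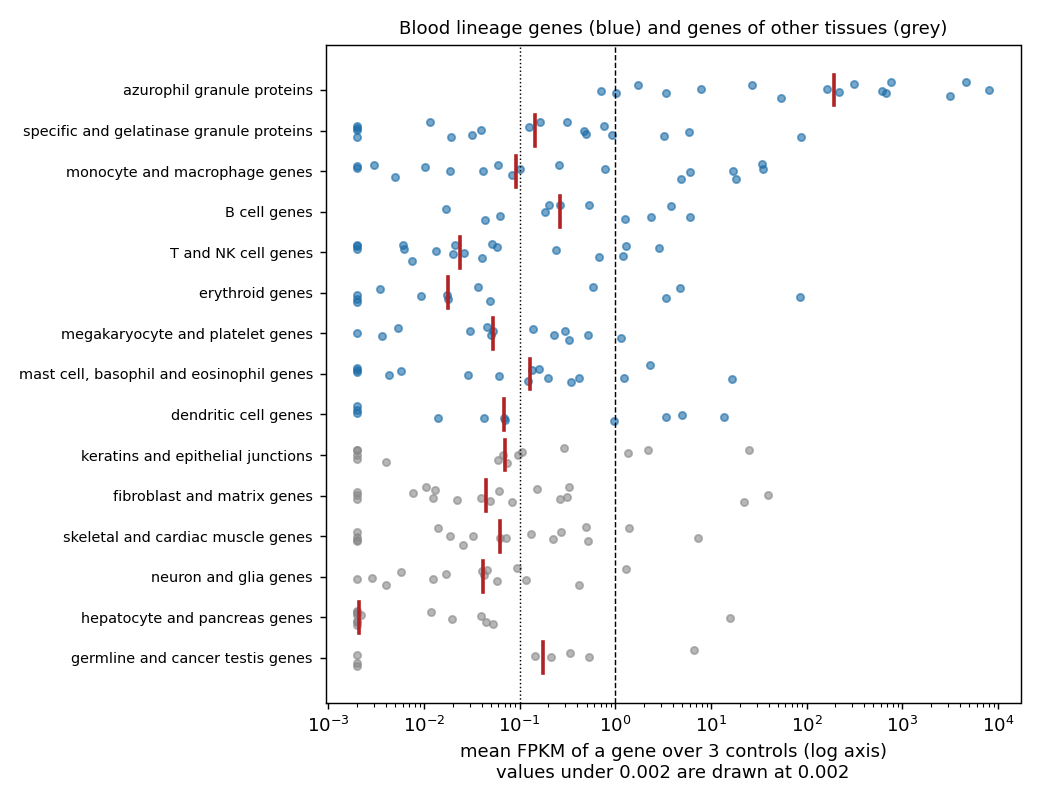
Mean FPKM (log axis) of each listed gene of 9 blood lineage or granule lists (blue) and 6 lists of other tissues (grey); each point is 1 gene, the red bar is the list's median, the dashed line is 1 FPKM, the dotted line 0.1 FPKM, and values near 0 are drawn at a floor named under the axis. The azurophil list has its median at 191 FPKM, and the other 14 medians lie under 1 FPKM.

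Receptor tyrosine kinases were expressed in 12 of 45 listed members and low in 20, with a median of 0.135 FPKM. KIT exceeded the next, RET, the receptor of the GDNF family, by 10.5 to 15.5 times. RET had 12.7, 11.6 and 14.9 FPKM and overlapped IGF1R at 11.2, 10.9 and 13.2 and the ephrin receptor EPHB4 at 13.4, 9.87 and 9.81 FPKM. The class of KIT also holds FLT3, CSF1R and the PDGF receptors. FLT3, a receptor of progenitors, had 3.69, 3.34 and 3.18 FPKM, and KIT exceeded it by 40.6 to 53.7 times, or 47.1 times per kilobase of the principal transcripts. PDGFRB and PDGFRA averaged 0.0604 and 0.0391 FPKM. RYK and PTK7, Wnt coreceptors, averaged 7.81 ± 1.03 and 6.99 ± 1.87 FPKM.

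Cytokine receptors were expressed in 20 of 43 listed members and low in 12, with a median of 1.05 FPKM. CSF3R led, followed by IL2RG, the shared gamma chain, with 89.2, 68.9 and 56.6 FPKM. IL27RA averaged 30.4 ± 6.64 FPKM. The interferon receptor chains IFNGR2, IFNGR1 and IFNAR1 averaged 9.57 ± 0.444, 9.47 ± 2.39 and 9.15 ± 2.66 FPKM. The chains for IL-3 and GM-CSF were lower, and CSF3R was 14.02 to 32.9 times CSF2RB, or 51.3 times per kilobase of the principal transcripts. CSF2RB, which they share, had 3.46, 4.54 and 4.01 FPKM, and IL3RA and CSF2RA averaged 4.95 ± 1.40 and 1.05 ± 0.354 FPKM.

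Chemoattractant receptors were sparse, with 3 of 26 listed members expressed and 11 low. The complement receptor C3AR1 and the leukotriene receptor LTB4R averaged 14.3 ± 1.35 and 5.43 ± 1.02 FPKM. CXCR4, which holds progenitors in the marrow, had 3.31, 1.89 and 5.47 FPKM, highest in replicate 3. Of the toll-like receptor list 8 of 19 were expressed, the highest being signalling parts: the kinase IRAK1, the chaperone UNC93B1 and the adaptor MYD88 averaged 41.9 ± 3.69, 30.8 ± 6.69 and 22.1 ± 2.41 FPKM. TLR2 had 15.5, 22.1 and 19.7 FPKM. TLR4, which senses endotoxin, had 0.847, 2.63 and 2.46 FPKM, and its coreceptor LY96 averaged 0.0920 FPKM.

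Integrins and adhesion receptors were expressed in 13 of 34 listed members. ITGB1, which with ITGA4 or ITGA5 forms receptors of fibronectin, had 61.4, 93.2 and 89.2 FPKM. ITGA5 and ITGA4 averaged 40.8 ± 3.44 and 27.6 ± 3.92 FPKM. ITGB2, the chain of leucocyte integrins, had 19.2, 27.0 and 27.5 FPKM. Its partners ITGAL, ITGAM and ITGAX averaged 0.261, 0.0823 and 0.259 FPKM.

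Among 26 listed TNF receptors 11 were expressed and 11 low. TNFRSF1A and LTBR averaged 73.5 ± 11.2 and 12.5 ± 2.09 FPKM. The death receptors for TRAIL were expressed, TNFRSF10A with 6.46, 5.14 and 7.28 FPKM and TNFRSF10B with 6.2, 3.77 and 4.77 FPKM. FAS, another death receptor, had 0.0646, 0.0136 and 0.0133 FPKM. Nuclear receptors were expressed in 19 of 37 (51.4%, against 59.8% of protein-coding genes). ESRRA, RXRB and the retinoic acid receptor RARA averaged 24.2 ± 6.41, 19.4 ± 2.42 and 3.68 ± 1.02 FPKM. The glucocorticoid receptor NR3C1 had 11.0, 16.5 and 17.9 FPKM. Of 31 listed Wnt, Notch, Hedgehog and TGF-beta receptors 14 were expressed, led by TGFBR2, LRP5, NOTCH1 and LRP6 at means of 31.9 ± 6.53, 27.4 ± 5.18, 14.2 ± 1.97 and 11.9 ± 2.52 FPKM.

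Growth factors and cytokines were expressed in 10 of 38 listed members and low in 19. TGFB1 had 114, 90.7 and 119 FPKM and HGF, the growth factor of epithelia and liver, 21.3, 10.6 and 11.1 FPKM. The B cell survival factor TNFSF13B averaged 20.5 ± 1.64 FPKM, VEGFB 11.2 ± 1.69 FPKM and VEGFA 7.81 ± 2.18 FPKM; per kilobase of the principal transcript VEGFA stood at 94.1 FPKM. Of 21 listed chemokines 4 were expressed. CCL5, which attracts T cells and monocytes, had 47.7, 40.1 and 34.6 FPKM. CXCL8, the neutrophil chemokine IL-8, had 2.08, 3.86 and 7.56 FPKM, lowest in replicate 1, and its relatives CXCL2 and CXCL1 averaged 2.32 ± 0.865 and 1.91 ± 0.563 FPKM.

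In 42 ligand and receptor pairs, both were expressed in 6, the receptor alone in 16, the ligand alone in 11 and neither in 9, where a gene that was not listed counts as not expressed. The 6 were TGFB1 with TGFBR1 and with TGFBR2, TNF with both of its receptors, GAS6 with MERTK, and CD47 with SIRPA. The ligands of KIT and CSF3R, the highest receptors, did not reach 1 FPKM. KITLG, stem cell factor, was detected, with 0.146, 0.909 and 0.731 FPKM and CSF3, which encodes G-CSF, 0.0247, 0.0780 and 0.0255 FPKM. In the opposite case MET, the receptor of HGF, was listed at 0 in every library, and CXCR2 averaged 0.916 FPKM beside CXCL8.

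Class I antigen presentation was expressed in 10 of 14 listed members, with a median of 13.9 FPKM. B2M, the light chain, had 123, 127 and 121 FPKM, a coefficient of variation of 2.39%. Of the heavy chains, HLA-B had 58.0, 23.1 and 24.0 FPKM, and HLA-E and HLA-C averaged 81.7 ± 44.4 and 9.12 ± 3.58 FPKM. These 3 heavy chains were highest in replicate 1, while B2M was lowest in replicate 3 and nearly level. The HLA genes are near-identical copies, and HLA-B overlaps a gene on the other strand over 17.8% of its exon bases, so their values are uncertain. Of 16 listed class II genes 5 were expressed: CD74, HLA-DRA and the factors RFX5, RFXANK and RFXAP. The invariant chain CD74 had 68.2, 89.1 and 49.4 FPKM and HLA-DRA had 7.77, 19.4 and 6.89 FPKM. CIITA, the activator of class II genes, had 0.735, 1.47 and 0.425 FPKM, and CD74, HLA-DRA and CIITA were each highest in replicate 2 and lowest in replicate 3. HLA-DRB1, the partner of HLA-DRA, averaged 0.340 ± 0.279 FPKM. It too has close copies, HLA-DRB5 among them, so its value is uncertain. Interferon-stimulated genes were expressed in 8 of 26 (30.8%, against 59.8% of protein-coding genes). STAT2, HERC5 and ISG15 averaged 8.70 ± 0.495, 7.35 ± 0.796 and 3.36 ± 0.494 FPKM, and MX1 0.0661 ± 0.0530 FPKM.

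Proliferation genes were expressed in 32 of 36 listed members, with a median of 31.5 FPKM. PCNA, the sliding clamp of DNA replication, had 119.8, 183 and 143 FPKM. MCM7, MCM3 and MCM2, of the replicative helicase, averaged 125 ± 11.7, 83.5 ± 10.2 and 74.4 ± 4.87 FPKM. TOP2A, which untangles DNA at mitosis, averaged 75.4 ± 23.9 FPKM and MKI67 56.2 ± 15.1 FPKM. CDK6, the G1 kinase of blood cells, had 40.7, 72.9 and 70.5 FPKM, and CDK4 had 47.6, 45.7 and 38.5 FPKM with 43.2% of its exon bases under a gene of the other strand.

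The BCL2 family was expressed in 12 of 16 listed members. The survival protein MCL1 led with 39.6, 55.2 and 57.5 FPKM, and the death effectors BAX and BAK1 averaged 20.8 ± 0.713 and 13.1 ± 0.893 FPKM. BCL2, the target of venetoclax, had 4.09, 4.59 and 4.29 FPKM, and MCL1 exceeded it by 9.68 to 13.4 times, or 8.27 times per kilobase of the principal transcripts. BCL2L1 had 9.20, 6.39 and 6.07 FPKM, 4.30 to 9.46 times under MCL1, with 43.0% of its exon bases under a gene of the other strand. The BH3 proteins BIK and BID averaged 15.4 ± 3.67 and 14.4 ± 2.21 FPKM.

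Programmes of other tissues were mostly not expressed, and the exceptions were few enough to name. Keratin and epithelial junction genes were expressed in 3 of 14 listed members and low in 8. EPCAM, an adhesion protein of epithelia, had 23.2, 27.6 and 24.0 FPKM, and KRT10 and the splicing factor ESRP1 averaged 2.19 ± 0.0845 and 1.36 ± 0.148 FPKM. KRT8 and KRT18, which have many pseudogene copies and are thus uncertain, were listed at 0 in every library. Fibroblast and matrix genes were expressed in 2 of 18 and low in 11: SPARC, a secreted collagen-binding protein, had 45.0, 38 and 36.7 FPKM and TIMP1, an inhibitor of metalloproteases, 24.9, 18.6 and 22.3 FPKM. VIM, the intermediate filament of mesenchymal cells and most leucocytes, had 0, 1 and 5 reads, a mean of 0.0220 FPKM; 24.4% of its exon bases overlap a gene on the other strand. Endothelial genes were expressed in 4 of 16: ENG and ERG, given above, and the junction proteins ESAM and PECAM1. ESAM had 30.4, 10.7 and 13.3 FPKM, with replicate 1 far above the other two, and PECAM1 averaged 2.40 ± 0.498 FPKM. The endothelial cadherin CDH5 averaged 0.0376 FPKM.

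Muscle genes were expressed in 2 of 17, the troponin TNNT1 and the embryonic myosin MYH3, at means of 7.38 ± 2.02 and 1.40 ± 0.250 FPKM. Of 14 listed neuron and glia genes MBP was expressed (1.16, 1.2 and 1.56 FPKM). Among 14 listed liver and pancreas genes SERPINA1, alpha-1 antitrypsin and an inhibitor of neutrophil elastase, had 16.6, 15.7 and 14.9 FPKM and the other 13 were low. Germline genes were expressed in 1 of 8, ZP3 at 8.78, 5.67 and 5.45 FPKM, and pluripotency genes in 1 of 5, LIN28B, a blocker of let-7 maturation, at 3.74, 7.32 and 7.04 FPKM. Master regulators of other tissues were expressed in 1 of 14, the heart factor NKX2-5 at 2.20, 1.57 and 1.27 FPKM. Of 24 keratin and junction genes 10 were not listed, and of 30 germline genes 22, and no level can be given for them.

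The spread between the 3 libraries was larger than read counting gives. The median coefficient of variation of the 9334 expressed protein-coding genes was 16.2%, with quartiles of 9.74% and 24.7%, where counting alone gives a median of 3.60%. In 819 of them (8.77%) the highest library was at least 2 times the lowest, and in 551 of these the lowest library was replicate 1, which was lowest in 4540 of all 9334. Without replicate 1 the number was 91 and the median coefficient 8.34%; with a trend on GC content removed within each library they were 277 and 11.4%. The 10 most variable genes with a mean of at least 20 FPKM were HMGCS1, PLIN2, CHCHD10, TUBA1A, SCD, MDK, C1QTNF4, MVD, INSIG1 and P4HA1. HMGCS1, the HMG-CoA synthase of sterol synthesis, had 28.7, 28.9 and 143 FPKM. PLIN2, which coats lipid droplets, had 13.1, 8.80 and 46.0 FPKM, and SCD, a fatty acid desaturase, 118, 63.7 and 270.1 FPKM. These 3 were highest in replicate 3, as was TUBA1A, a tubulin, with 21.6, 10.9 and 49.9 FPKM. The secreted protein C1QTNF4 had 196, 69.2 and 61.3 FPKM and the growth factor MDK 63.2, 20.2 and 21 FPKM. Both were highest in replicate 1, as was the mitochondrial protein CHCHD10 with 64.7, 11.4 and 25.9 FPKM.

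Whole gene groups moved with single libraries. A group's shift in a library is the median over its expressed members of the log2 ratio to the mean of the other 2 libraries; over all expressed protein-coding genes it was -0.09, 0.07 and 0.01 in replicates 1, 2 and 3, which were the highest library of 3216 (34.5%), 3772 (40.4%) and 2346 (25.1%) of the 9334 genes. Ribosomal protein genes were shifted by 0.46 in replicate 1, with 72 of 75 highest there, and by 0.54 once the GC trend was removed. Glycolysis enzymes were shifted by 0.49 in replicate 3, with 14 of 16 highest there, and by 0.49 without the GC trend. Proliferation genes were shifted by 0.27 in replicate 2 (24 of 32 highest there) and chaperones by 0.28 (25 of 29); without the GC trend these were 0.21 and 0.19. The mitochondrial messengers were shifted by 0.20 in replicate 2, with 11 of 13 highest there, and by 0.05 without the GC trend. Azurophil genes were shifted by 0.32 in replicate 1, with 10 of 14 highest there, and by 0.22 without the GC trend.

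Another 3 groups were added after the most variable genes had been seen, so their direction is a description and no support; the shares of all expressed genes highest in replicates 1 and 3 were 34.5% and 25.1%. Of 23 expressed sterol synthesis genes 21 were highest in replicate 3, with a shift of 1.13, and 17 had a highest library at least 2 times the lowest. INSIG1, which holds back the sterol sensor, had 46.9, 34.6 and 106 FPKM and MVD, a decarboxylase of the mevalonate pathway, 16.8, 11.6 and 38.6 FPKM. Of 23 expressed hypoxia-inducible genes 22 were highest in replicate 3, with a shift of 1.00: the mitophagy receptor BNIP3 had 6.48, 8.13 and 32.6 FPKM. P4HA1, a collagen prolyl hydroxylase subunit, had 18.8, 25.1 and 56.9 FPKM and PFKFB4, a regulator of glycolysis, 3.14, 1.52 and 26.7 FPKM. VEGFA, a well-known member, was the exception, highest in replicate 1. Of 20 expressed ATF4 amino acid stress genes 18 were highest in replicate 1, with a shift of 0.85: ATF4 itself had 327, 138 and 185 FPKM. The serine synthesis enzyme PHGDH had 31.2, 4.91 and 8.43 FPKM and CHAC1, which degrades glutathione, 13.6, 1.15 and 3.82 FPKM. DDIT4 stands in both the ATF4 and the hypoxia list and had 10.4, 3.84 and 34.3 FPKM. The hypoxia list also shares members with the glycolysis list, ENO1 and HK2 among them, so their rises in replicate 3 are not separate results. Without the GC trend the 3 shifts were 1.02, 1.04 and 0.76. The labels give no batch, date or density for the samples, and what the libraries differ in was not tested.

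**Figure D5:**
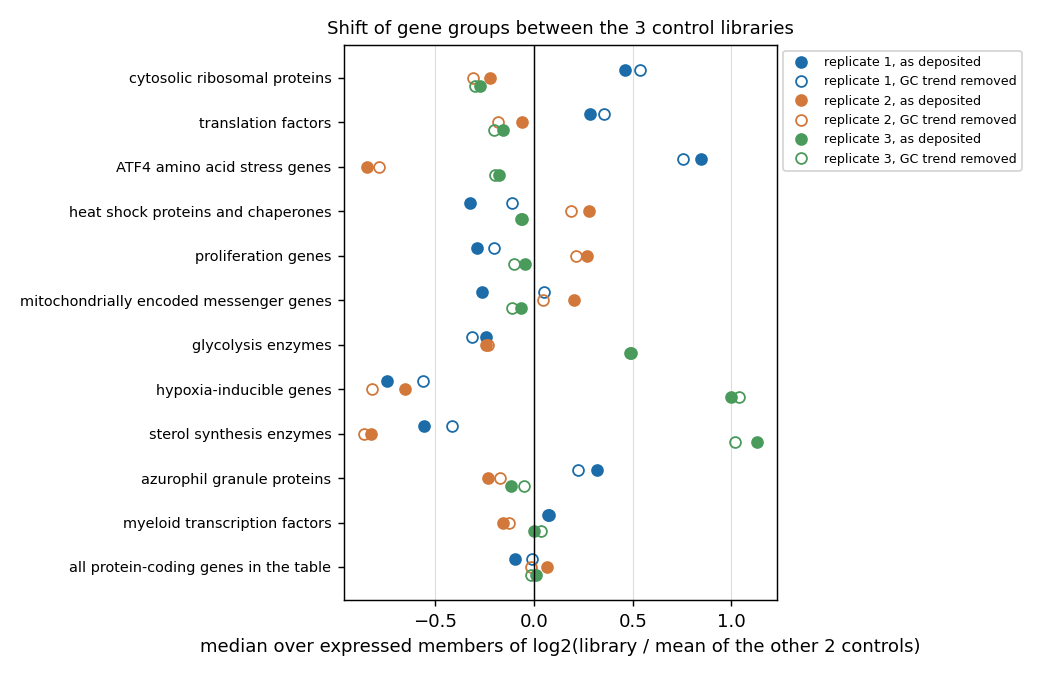
Shift of 11 gene groups and of all protein-coding genes in each control library, as the median over expressed members of log2(library / mean of the other 2 controls); filled points are the deposited values and open points those with a trend on GC content removed, coloured by replicate. Sterol synthesis and hypoxia-inducible genes lie at 1.13 and 1.00 in replicate 3 and ATF4 amino acid stress genes at 0.85 in replicate 1, while all genes lie between -0.09 and 0.07.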

How the data were processed

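Kasumi-1 RNA was extracted in Trizol, and polyadenylated RNA was sequenced from TruSeq Stranded mRNA libraries, per the labels' protocols. The submitters' processing notes name hg38 and, without versions or roles, HISAT2, HTSeq, Trimmomatic and Cufflinks; annotation and use of strand in counting are unknown from the sources used here. The authors deposited FPKM values per Ensembl gene for 6 samples; the 3 control columns were used, and 0 columns were left unmapped. With exon lengths of GENCODE 29 (29703 of 29810 genes matched), the values gave whole reads within 0.05 reads for 28551 genes (96.1%). Symbols came from a separate gene name reference, and from GENCODE 29 where that gave none. A count test had no second group here and was not run.

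Levels, SDs, coefficients of variation and list counts were computed in Python 3.11.15 with pandas 2.3.3, numpy 2.4.6 and statsmodels 0.14.6. Formulas for library totals, coefficients of variation, shifts and the call of 2 times between libraries were tried on simulated data. List counts and the removal of the GC trend were not. The 51 gene lists, 42 pairs and their members were chosen with earlier results of these data known, and 3 lists were added after the values were seen. Genes named are the 25 most abundant protein-coding genes, of other types those among the 10 most abundant of at least 200 bases, up to 6 highest members of a described list with paralogs, subunits, ligands or receptors, the 6 markers, and the 10 most variable genes with a mean of at least 20 FPKM; lower members named beside these were chosen after their values were seen. Genes of the Y chromosome and XIST were left out, and some other genes are not reported here. Coordinates are 1-based, on GRCh38 from GENCODE 29.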

Additional observations from a re-analysis of the deposited data

How the results depend on the processing

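The number of expressed genes was 10601; it was 5946 at 5 FPKM and stayed within 1.5 times at 0.5 FPKM, in 2 of 3 libraries, on a TPM scale and per kilobase of the principal transcript. The number of low protein-coding genes was 3031, and 1993 when fewer than 3 reads in each library were required. The share of FPKM in the 25 leading genes was 26.4%, and 20.4% among nuclear protein-coding genes alone, 13.5% as a share of library fragments and 21.3% per kilobase of the principal transcript (added after the data were seen). The median coefficient of variation of 16.2% was 11.4% with the GC trend removed and 13.8% at 5 FPKM; leaving out 1 library gave 8.34% to 17.97%. The 819 genes whose highest library was at least 2 times the lowest were 277 with the GC trend removed and 236 at 5 FPKM, and leaving out 1 library gave 91 to 624. In these values the cause was not tested, beyond the fewer genes or libraries that some settings leave. Of 54 lists, the count of expressed members moved by over 1.5 times in 25 at 5 FPKM, in 3 at 0.5 FPKM and in 1 without replicate 2. Leaving out 1 library moved the mean of 32 of 327 genes by over 1.5 times, HMGCS1, PLIN2, CHCHD10, HLA-DRA, CXCL8, ESAM and MDK among them. No paired analysis was possible because a single group was described.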

Other observations

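Genes that handle cytarabine, a nucleoside drug used in this leukaemia, were unequal. The uptake transporter SLC29A1 had 53.8, 44.9 and 38 FPKM and DCK, the kinase that activates the drug, 5.94, 12.4 and 9.44 FPKM; CDA, the deaminase that inactivates it, was listed at 0 in all 3 libraries, and SAMHD1, which degrades its active form, had 4.82, 8.18 and 7.71 FPKM. The efflux pump ABCB1 had 0.729, 0.716 and 0.847 FPKM and ABCC1 23.2, 18.7 and 21 FPKM. Of 17 listed genes of this kind 11 were expressed (64.7%, against 59.8% of protein-coding genes). Chromatin and DNA methylation enzymes were expressed in 37 of 41 listed members, led by IDH2 (161, 165 and 155 FPKM, a coefficient of variation of 3.08%), the histone demethylase KDM1A (55.2, 62.7 and 50.03), DNMT1 (42.7, 48.1 and 48.6) and HDAC1 (44.1, 49.97 and 43.1).

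The 2 mitochondrial ribosomal RNAs held 1.77% of FPKM, more than the 0.734% in long intergenic or the 0.572% in antisense RNAs, and processed pseudogenes held 3.31%. Among 24 listed known long noncoding RNAs 17 were expressed (70.8%), against 35.6% of all genes. The shares were 8.45% of long intergenic RNAs, 7.49% of antisense RNAs and 16.4% of processed transcripts. The list was made of known RNAs, so its share does not stand for long noncoding RNAs at large. DANCR had 298, 242 and 227 FPKM, GAS5 117, 67.3 and 78.8 and SNHG8 119.9, 56.1 and 71.3 FPKM. NORAD had 60.1, 74.9 and 84.5 and MALAT1 26.7, 29.6 and 38.7 FPKM. GAS5 and SNHG8, hosts of small nucleolar RNAs, were highest in replicate 1, as the ribosomal protein genes were, and NORAD and MALAT1 were highest in replicate 3. The TATA box letters TATAAA (both strands, 250 bases before to 50 after the start) were in 4.72% of the promoters of expressed genes, 11.1% of those of low genes and 6.84% of all, but in 9 of 70 (12.9%) of those of the 100 most abundant genes, so the share did not follow the level in 1 direction.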
